A study of Mus musculus with 2 samples.

Results

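Plasmacytoid dendritic cells (pDC) were picked out of the CD45+ cells of B16F10 tumors, a mouse melanoma line grown under the skin, by a rule on unique molecular identifier (UMI) counts. A barcode entered when it had 200 or more genes and no more than 10% mitochondrial UMIs. It was called a pDC when it held at least 3 UMIs of Siglech, less than 0.2% of its UMIs from C1qa, C1qb and C1qc, fewer than 3 of Xcr1 and Clec9a, at most 1 of Cd3e, Cd3d and Cd3g, and 0 of Ms4a1. The rule found 252 pDC among 12815 barcodes that entered (1.97%), of 13817 in all: 172 in the control library and 80 in the other. The cells were thus selected on measured UMIs of Siglech and the excluding genes, which are given as a description.

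The control hosts were Usp18f/f mice and the others Usp18f/f LysM-Cre mice, both on a C57BL/6 background, so both groups carried the floxed Usp18 alleles. LysM-Cre is a Cre recombinase carried in the Lyz2 locus, which is active in macrophages, neutrophils and many monocytes. Usp18 encodes a protease that removes ISG15 from proteins and also dampens signaling from the type I interferon receptor. At day 14, 4 tumors a group were pooled into 1 droplet library, so that no comparison between groups has a replicate and none was tested. Cells of the second group are called knockout-labelled below. All intervals are 95% intervals for counting error only.

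Plasmacytoid dendritic cells sense nucleic acids in endosomes through TLR7 and TLR9 and can answer with large amounts of type I interferon, made under the control of IRF7. Their identity rests on the transcription factor TCF4, with RUNX2, SPIB, BCL11A and IRF8, whereas conventional dendritic cells use ID2, ZBTB46 and BATF3. Siglec-H is a surface receptor of mouse pDC that signals through the adaptor DAP12, the product of Tyrobp, and CCR9 is a chemokine receptor.

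The libraries held 7754 and 6063 barcodes with 43412346 and 48167632 UMIs, control first here and in each pair of values that follows. The pDC held 869907 and 431548 UMIs, with a median of 4859.5 and 5295 per cell. Their median mitochondrial share was 7.02% in both libraries, near the 7.42% and 7.23% of B cells and above the 3.18% to 4.12% of conventional dendritic cells, migratory dendritic cells and monocytes. The libraries had 8 barcode sequences in common, and 0 belonged to a pDC. The pools differed in the sex of their hosts. Of pDC with UMIs either of Xist, which female cells express, or of Y-linked genes, 21.4% of control cells and 91.7% of knockout-labelled cells had Xist. Genotype, sex and library cannot be told apart over all pDC, and values within cells with Xist are therefore given for the differences described most closely.

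Levels of the 5 label markers are given as CPM (UMIs per 1e+06 UMIs); Siglech chose the cells, and the other 4 were free to be absent. Siglech was at 3333 CPM (interval 3212 to 3456) in control pDC and 2637 CPM (2486 to 2795) in knockout-labelled pDC. Ccr9 stood at 1762 and 1884 CPM, and Tcf4 at 2918 and 2591 CPM. Cox6a2, a muscle-type subunit of cytochrome oxidase, stood at 831 and 626 CPM, and Klk1, a tissue kallikrein, at 384 and 827 CPM. In all other barcodes Ccr9 was at 6.48 and 3.46 CPM, Cox6a2 at 2.67 and 2.38 CPM, Tcf4 at 128 and 121 CPM, and Klk1 at 0.618 and 0.865 CPM. All 252 pDC held a UMI of at least 1 marker besides Siglech. So did 35.3% of barcodes with 0 Siglech UMIs that met every other condition, where 34.9% held a UMI of Tcf4. At least 3 of the other 4 markers were held by 93.4% of pDC with 10 or more Siglech UMIs. This share was 28.6% in pDC with exactly 3 Siglech UMIs and 0.0329% in the barcodes with 0. After thinning each cell to 1000 UMIs, Ccr9 was detected in 77.6% of 170 control pDC (exact interval 70.6 to 83.7) and 82.3% of 79 knockout-labelled pDC (72.1 to 90.0), against 0.186% and 0% of thinned B cells. Before thinning these shares were 97.1% and 97.5% of pDC, and 0.183% and 0% of B cells at median depths of 1642 and 1905 UMIs.

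At the threshold of the rule, 7 pDC with exactly 3 Siglech UMIs had Ccr9 at 840 CPM and Tcf4 at 3605 CPM. Just outside it, 9 barcodes with 2 Siglech UMIs that met every other condition had Ccr9 at 190 CPM and Tcf4 at 1523 CPM. Most pDC lay further inside, with 198 holding 10 or more Siglech UMIs.

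**Figure D1:**
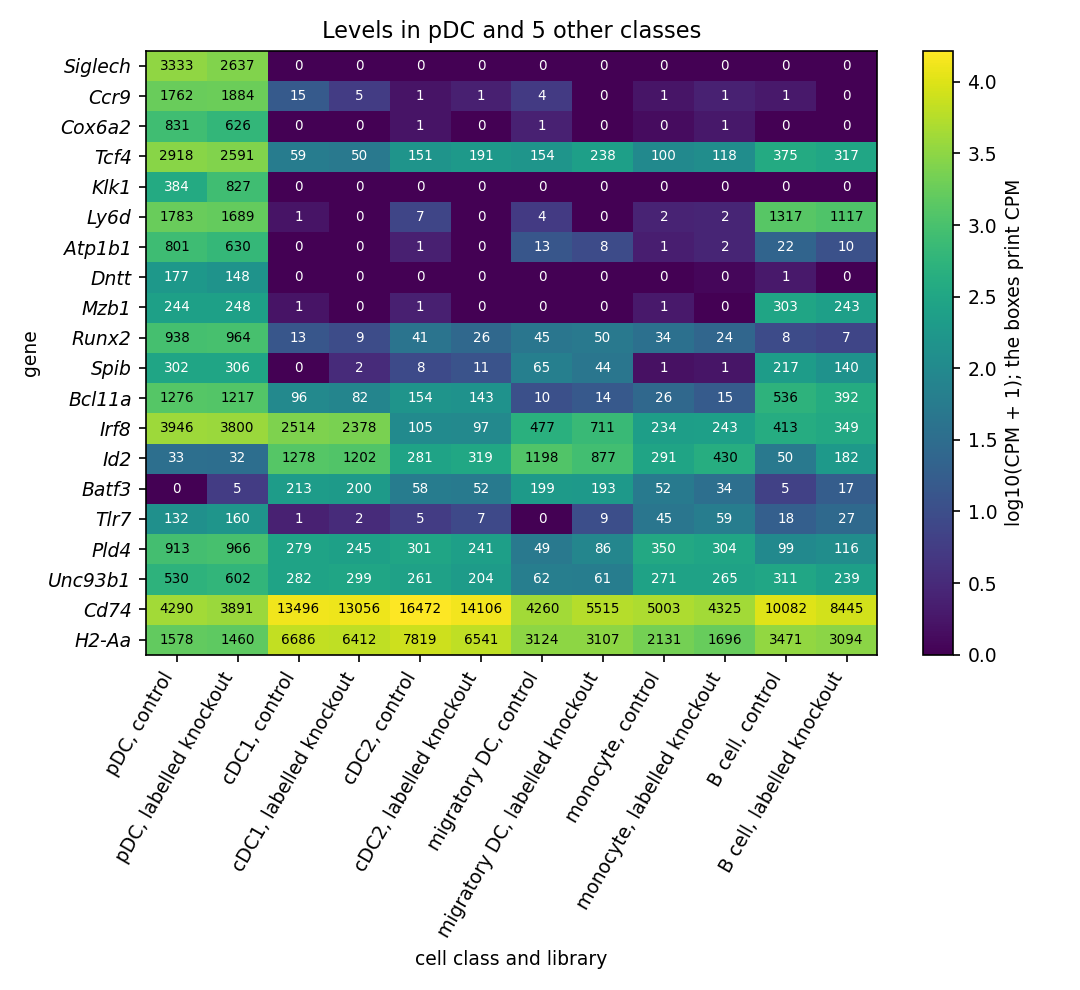
Levels of 20 genes (rows) in pDC and 5 comparison classes (columns), each in both libraries; color is log10 of CPM + 1 and each box prints the CPM. Ccr9 reaches at most 14.7 CPM and Klk1 has 0 UMIs in the 5 other classes, while Ly6d and Mzb1 are shared with B cells and Irf8 with cDC1.

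The comparison classes were set by counts in the same manner, all with 0 Siglech UMIs. They were cDC1, the conventional dendritic cells marked by Xcr1 and Clec9a (113 and 97 cells), cDC2 marked by Cd209a (184 and 148), migratory dendritic cells with Fscn1 and Ccr7 (96 and 97), monocytes with Csf1r (789 and 817) and B cells (545 and 209). Klk1 had 0 UMIs in each class of each library, which in control monocytes allows up to 0.556 CPM. Ly6d, a surface protein of early lymphoid and B-lineage cells, was at 1783 and 1689 CPM in pDC and 1317 and 1117 CPM in B cells, but at no more than 6.55 CPM in the remaining classes. Mzb1, an endoplasmic reticulum protein of B cells and antibody-secreting cells, showed the same sharing, at 244 and 248 CPM in pDC and 303 and 243 CPM in B cells. Dntt, the DNA polymerase that adds untemplated bases in lymphocyte progenitors, was at 177 and 148 CPM in pDC and had at most 1 UMI in any other class.

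Against all other barcodes, 629 of 6794 genes (9.26%) were at least 2-fold higher in pDC in both libraries and 181 (2.66%) at least 4-fold, which describes the chosen cells. Of the 38 genes in a list of pDC identity genes, 33 were at least 2-fold higher. Behind the label markers came Atp1b1, a subunit of the sodium pump, at 801 and 630 CPM against 11.8 and 7.09 CPM in other cells. Cd300c, an immunoglobulin-like receptor, was at 235 and 236 CPM against 0.964 and 0.973 CPM, and Smim5, a small membrane protein, at 314 and 491 CPM against 3.49 and 3.61 CPM. They were followed by Upb1, D13Ertd608e, Mctp2, Dntt, Pacsin1, Ptprf, Atp2a1, Paqr5, Runx2, Lefty1, Cdh5, Klk1b27, Rpgrip1, Ccdc162, Ly6d, Sh3bgr and Bcl11a, with a log2 ratio over other cells of 4.23 to 5.20 in the library where it was smaller. Klk1 and Klk1b27 are close copies, and the split of reads between them is uncertain.

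Transcription factors separated pDC from the conventional dendritic cells. Runx2 was at 938 and 964 CPM in pDC and at most 50.2 CPM in any other class. Spib was at 302 and 306 CPM and Bcl11a at 1276 and 1217 CPM, each next highest in B cells, with 217 and 140 CPM for Spib and 536 and 392 CPM for Bcl11a. Irf8, which cDC1 share, was at 3946 and 3800 CPM in pDC and 2514 and 2378 CPM in cDC1. Id2, an antagonist of TCF4, was low in pDC at 33.3 and 32.4 CPM, against 1278 and 1202 CPM in cDC1. Batf3, a factor of cDC1, had 0 and 2 UMIs in pDC, where 0 UMIs allow up to 3.45 CPM, and stood at 213 and 200 CPM in cDC1. Zbtb46 had 1 and 6 UMIs in pDC.

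The pDC carried transcripts of the sensing machinery, and no UMI of an interferon gene was detected. Tlr7, the endosomal receptor for single-stranded RNA, was at 132 CPM (interval 109 to 159) and 160 CPM (124 to 202), with monocytes next at 44.8 and 59.1 CPM. Tlr9, the receptor for unmethylated DNA, had only 3 and 5 UMIs. Unc93b1, which carries these receptors to endosomes, was at 530 and 602 CPM. Pld4, an endosomal exonuclease, was at 913 and 966 CPM. For both genes these levels were above those of each comparison class. Slc15a4, an endosomal transporter, was at 106 and 64.9 CPM (ratio 0.613, interval 0.387 to 0.945), and within cells with Xist the ratio was 0.588 (0.299 to 1.18). Myd88, the receptors' adaptor, was at 63.2 and 83.4 CPM. All 21 interferon genes of the list had 0 UMIs in pDC, which for each gene allows up to 3.45 CPM in control and 6.95 CPM in knockout-labelled cells.

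Lists of secretory and of signaling genes had medians near 0, with single genes apart. Xbp1, a factor that builds secretory capacity, was at 338 and 403 CPM (ratio 1.19, interval 0.983 to 1.44), and 23 measured genes of an endoplasmic reticulum list had a median log2 ratio of 0.05. Tyrobp was at 3430.2 and 3494 CPM, and 16 measured genes of Siglec-H adaptors and inhibitory receptors had a median of -0.03. In that list Inpp5d, an inositol phosphatase, was at 186 and 111 CPM (0.597, 0.423 to 0.829), and within cells with Xist its ratio was 0.763 (0.428 to 1.40). Fcer1g, an adaptor chain shared with myeloid cells, was at 1070.2 and 1511 CPM over all pDC and at 1430.0 and 1375 CPM within cells with Xist. Fcgr2b, an inhibitory receptor for antibody, had 35 and 44 UMIs (2.53, 1.59 to 4.07), of which 1 knockout-labelled cell held 29.5%. Without pDC carrying UMIs of other cell types or monocytes, described below, it had 17 and 11 UMIs (1.26, 0.533 to 2.85). Il12a, a cytokine subunit, had 22 and 11 UMIs. Mki67, a marker of dividing cells, had 2 and 1 UMIs in pDC and stood at 371 and 329 CPM in cDC1.

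The share of pDC was lower in the library labelled knockout over all barcodes, and 1.79% in both libraries among those with Xist. Over all barcodes that entered, pDC made up 2.43% (exact Clopper-Pearson interval 2.08 to 2.81) and 1.40% (1.11 to 1.73), a ratio of 0.575 (0.442 to 0.748). Among barcodes with Xist they were 28 of 1564 (1.79%, 1.19 to 2.58) and 66 of 3677 (1.79%, 1.39 to 2.28), a ratio of 1.00 (0.647 to 1.55). Among barcodes with Y-linked UMIs they were 103 of 2769 (3.72%, 3.05 to 4.49) and 6 of 575 (1.04%, 0.384 to 2.26), a ratio of 0.281 (0.124 to 0.636). Among barcodes with neither or both kinds of UMI they were 41 of 2753 (1.49%, 1.07 to 2.02) and 8 of 1477 (0.542%, 0.234 to 1.06), a ratio of 0.364 (0.171 to 0.774). A share of sorted CD45+ cells also moves with the number of other cells. Detection of Xist or Y-linked UMIs depends on depth as well, and the barcodes that entered had medians of 2840 and 4682 UMIs. The part of depth in the shares by kind of barcode was not tested.

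**Figure D2:**
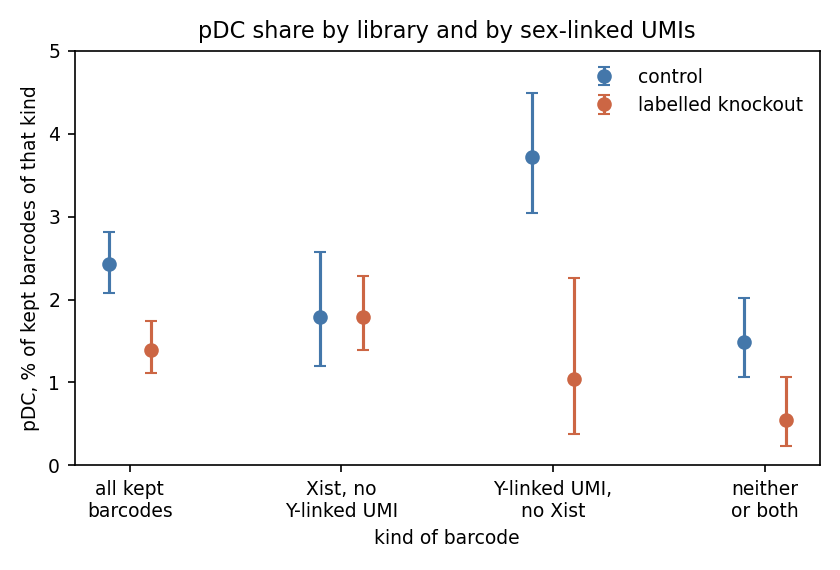
Share of pDC among barcodes that entered (vertical axis, percent, bars are exact 95% counting intervals) in each library, over all barcodes and within those with only Xist, only Y-linked UMIs, or neither or both. Both points are at 1.79% with Xist, and they are at 3.72% and 1.04% with Y-linked UMIs and at 1.49% and 0.542% in the last group.

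Usp18 had 25 UMIs in control pDC (28.7 CPM, interval 18.6 to 42.4) and 39 UMIs in knockout-labelled pDC (90.4 CPM, 64.3 to 124), a ratio of 3.14 (1.86 to 5.42). The deleted part of the gene is not given in the sources used here and a 3' tag can lie outside it, so these UMIs do not check the deletion. Of the 39 UMIs, 14 lay in 2 cells that also carried monocyte genes, and without all pDC with UMIs of other cell types or monocytes Usp18 had 22 and 22 UMIs, a ratio of 1.95 (1.03 to 3.68). Within cells with Xist the direction was the opposite, with 11 and 24 UMIs, or 77.9 and 66.5 CPM (0.855, 0.403 to 1.93). A single control cell held 7 of those 11 UMIs. Without the cell richest in interferon-stimulated genes in each library, cells with Xist had 4 and 21 UMIs (ratio 2.04, 0.688 to 8.17). Lyz2, the locus that carries Cre, had 703 UMIs in control pDC (808 CPM, of which 1 cell held 31.4%) and 0 in knockout-labelled pDC, which allows up to 6.95 CPM. It was at 1037 and 5.05 CPM in B cells and 11325 and 28.1 CPM in monocytes, so it was lower in these classes of the library labelled knockout as well.

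For the comparison of libraries, 6797 genes had at least 20 UMIs in pDC. Log2 ratios are log2 of (CPM + 5) knockout-labelled over (CPM + 5) control, a scale that understates the difference of low genes. The median was -0.04, with 46.7% of genes above 0 and 53.3% below. At least 2-fold higher in knockout-labelled pDC were 105 genes (1.54%), and at least 2-fold lower 164 (2.41%), or 127 (1.87%) when the counting interval also had to exclude 1. The identity list was level, with a median of 0.03 over 38 genes, 1 of them at least 2-fold higher (Irf7) and 1 lower (Cd209d). Siglech was 0.791 times the control level (interval 0.738 to 0.848), and 0.795 times (0.711 to 0.890) within cells with Xist.

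Klk1, a label marker outside the identity list, and a few genes of the list stood apart from that median. Klk1 was 2.15-fold higher in knockout-labelled pDC (1.85 to 2.51), and 1.47-fold (1.14 to 1.91) within cells with Xist, at 552 and 810 CPM. In cells with Xist and without UMIs of other cell types or monocytes (24 and 54 cells) its ratio was 1.19 (0.917 to 1.57). Under a mitochondrial limit of 5%, which left 17 and 12 pDC, its log2 ratio was -0.30. Smim5 was 1.57-fold higher (1.30 to 1.88), and 1.53-fold (1.11 to 2.14) within cells with Xist, or 1.52-fold (1.07 to 2.22) in those 24 and 54 cells. Ly6c2, a surface antigen of pDC and inflammatory monocytes with close relatives in the genome, was at 1151 and 2053 CPM over all pDC, but at 1649 and 1775 CPM within cells with Xist (1.08, 0.925 to 1.26). Cd209d, a C-type lectin of a gene family with near-identical members, was at 316 and 104 CPM. Control cells with Xist had Cd209d at 135 CPM and those with Y-linked UMIs at 346 CPM, and between cells with Xist the ratio was 0.639 (0.350 to 1.20).

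**Figure D3:**
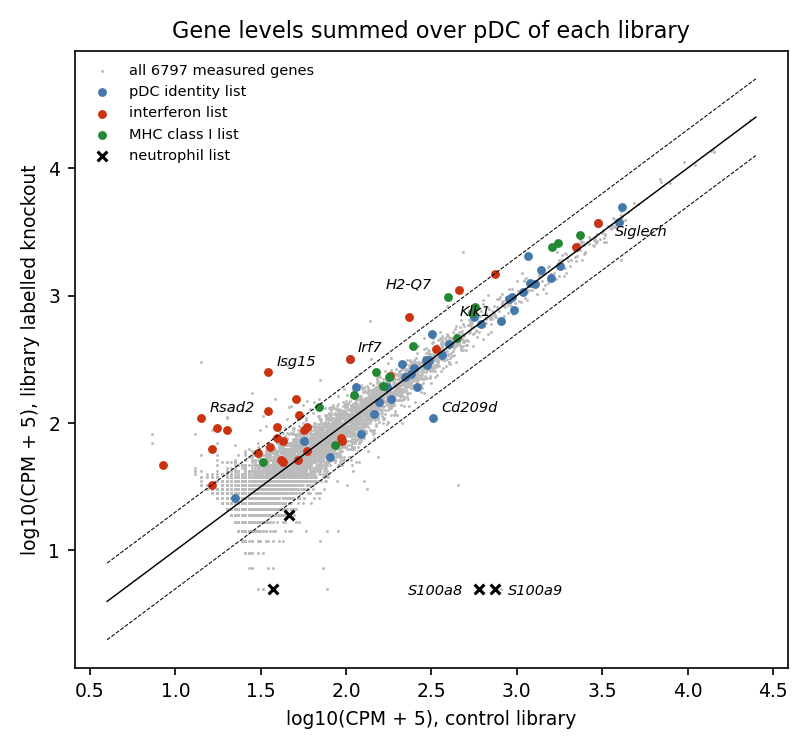
Gene levels summed over pDC, as log10 of CPM + 5, in the control library (horizontal) and the library labelled knockout (vertical) for 6797 genes, with 4 gene lists marked; the solid line is equality and the dashed lines are 2-fold. Identity genes other than Irf7 and Cd209d lie within the dashed lines, and S100a8 and S100a9 have 0 UMIs in the library labelled knockout.

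Genes stimulated by type I interferon were higher as a list in knockout-labelled pDC, with much of the difference in a few cells. Such genes are switched on through the interferon-stimulated response element. A spelling of it, GAAANNGAAA, was searched on both strands in the 250 bases before the starts of RefSeq genes (GRCm38.p6). It was found for 936 of 27025 genes (3.46%) and for 8 of the 23 measured interferon-list genes with a window (34.8%), which describes letters and not bound sites. The 100 bases around the matches are shown for Isg15 (chr4:156200842-156200941, minus strand) and Rsad2 (chr12:26456518-26456617, minus strand), because these genes had the largest log2 ratios among the measured genes of the list. Both are written 5′ to 3′ on the gene's strand and capitals mark the matches, 3 overlapping ones for Isg15 and 1 on the opposite strand for Rsad2.
Isg15: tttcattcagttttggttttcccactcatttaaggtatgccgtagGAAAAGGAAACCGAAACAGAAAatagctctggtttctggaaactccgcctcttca
Rsad2: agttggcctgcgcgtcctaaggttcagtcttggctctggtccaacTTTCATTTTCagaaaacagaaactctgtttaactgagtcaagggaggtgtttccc

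Of the 44 genes of the interferon list, 31 were measured. Of these 28 were above 0, 13 were at least 2-fold higher and 0 at least 2-fold lower, and the median was 0.96. Among all measured genes 46.7% were above 0, 1.54% at least 2-fold higher and 2.41% at least 2-fold lower. The list summed to 8069.8 CPM in control pDC and 12406.5 CPM in knockout-labelled pDC, a ratio of 1.54 (1.48 to 1.59). Isg15, the ubiquitin-like modifier that USP18 removes, was at 29.9 CPM (interval 19.5 to 43.8) and 246 CPM (201 to 297). Rsad2, the antiviral enzyme viperin, had 8 and 45 UMIs, and Ifit3, an interferon-induced protein just under the 20 UMIs needed to be called measured, 0 and 19. Within cells with Xist, Isg15 was at 70.8 and 186 CPM (2.62, 1.34 to 5.72) and Rsad2 had 2 and 31 UMIs. Irf7, the regulator of interferon production that interferon itself induces, was at 100.01 CPM (80.1 to 123) and 315 CPM (264 to 373), a ratio of 3.15 (2.39 to 4.17).

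Only 2 knockout-labelled pDC held 77 of the 106 Isg15 UMIs of their library. These cells had 11581 and 12141 UMIs, and carried 72 and 33 UMIs of the chemokine Ccl2, 9 and 16 of Fcgr1 and 13 and 42 of Ms4a4c, genes of monocytes. The deeper one had 4 Siglech UMIs and UMIs of both Xist and Y-linked genes, and the other was among the barcodes with the highest doublet scores. Without these 2 cells the list's median was 0.28. They were picked for Isg15, a gene of the list, in 1 library only, so the choice itself favored a lower median. The control cell richest in the list stayed in. Without all pDC that held 3 or more UMIs of another cell type or of 6 monocyte genes, which left 140 and 67 cells, the list's median was 0.25. Fcgr1 and Ms4a4c were among the 6 genes. The 7 knockout-labelled pDC with 3 or more UMIs of the 6 genes held 81 of the 106 Isg15 UMIs and all 19 of Ifit3. This filter thus left out cells rich in interferon-list genes. Whether those were mixed cells or pDC with a strong interferon response was not tested.

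In that reduced set the list summed to 8366.5 and 10393.2 CPM, and in its cells with Xist to 10478.8 and 10318.1 CPM. Over the whole reduced set Isg15 was at 40.4 and 69.5 CPM (ratio 1.72, 0.938 to 3.14), and Rsad2 had 7 and 6 UMIs. Irf7 was at 104 and 196 CPM (1.89, 1.32 to 2.70), below its ratio over all pDC. Mx1, an antiviral GTPase, had 9 and 22 UMIs (4.76, 2.10 to 11.7), and Ifi44, an interferon-induced protein, 10 and 21 UMIs (4.09, 1.84 to 9.72). Over all pDC these genes had 13 and 36 UMIs and 10 and 25 UMIs, so their ratios rested on low counts, and those without mixed cells were close to the ones over all pDC (5.58 and 5.04). Within cells with Xist they had 3 and 24 UMIs (3.13, 0.952 to 16.3) and 3 and 19 UMIs (2.48, 0.730 to 13.1), with intervals that include 1.

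Within cells with Xist the list's median, over the genes measured in those cells, was -0.02. One control cell of 5769 UMIs held 233 of the 1409 list UMIs there, including 9 of 10 Isg15 UMIs. Without the cell richest in the list in each library the median was 0.20, with 14 of 22 measured genes above 0, where 48.5% of all genes measured in those cells were. Ly6a, the surface antigen Sca-1, was at 741 and 1478 CPM over all pDC but at 1267 and 1298 CPM in cells with Xist (1.02, 0.860 to 1.22); control cells with Y-linked UMIs had it at 669 CPM. Ifi27l2a, an interferon-induced protein, was higher in both sets, at 456 and 1101 CPM over all pDC and at 588 and 976 CPM in cells with Xist (1.66, 1.30 to 2.14). Irf7 was also higher within cells with Xist, at 99.1 and 241 CPM (2.43, 1.38 to 4.64). When cells with other-type or monocyte UMIs were also left out, which left 24 and 54 cells, the intervals included 1: Isg15 had 10 and 17 UMIs (0.700, 0.303 to 1.71), Irf7 13 and 49 (1.55, 0.829 to 3.12) and Ifi27l2a 71 and 185 (1.07, 0.812 to 1.43). Slfn5, a schlafen protein, was at 29.9 and 118 CPM over all pDC and at 92.0 and 85.9 CPM in cells with Xist.

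**Figure D4:**
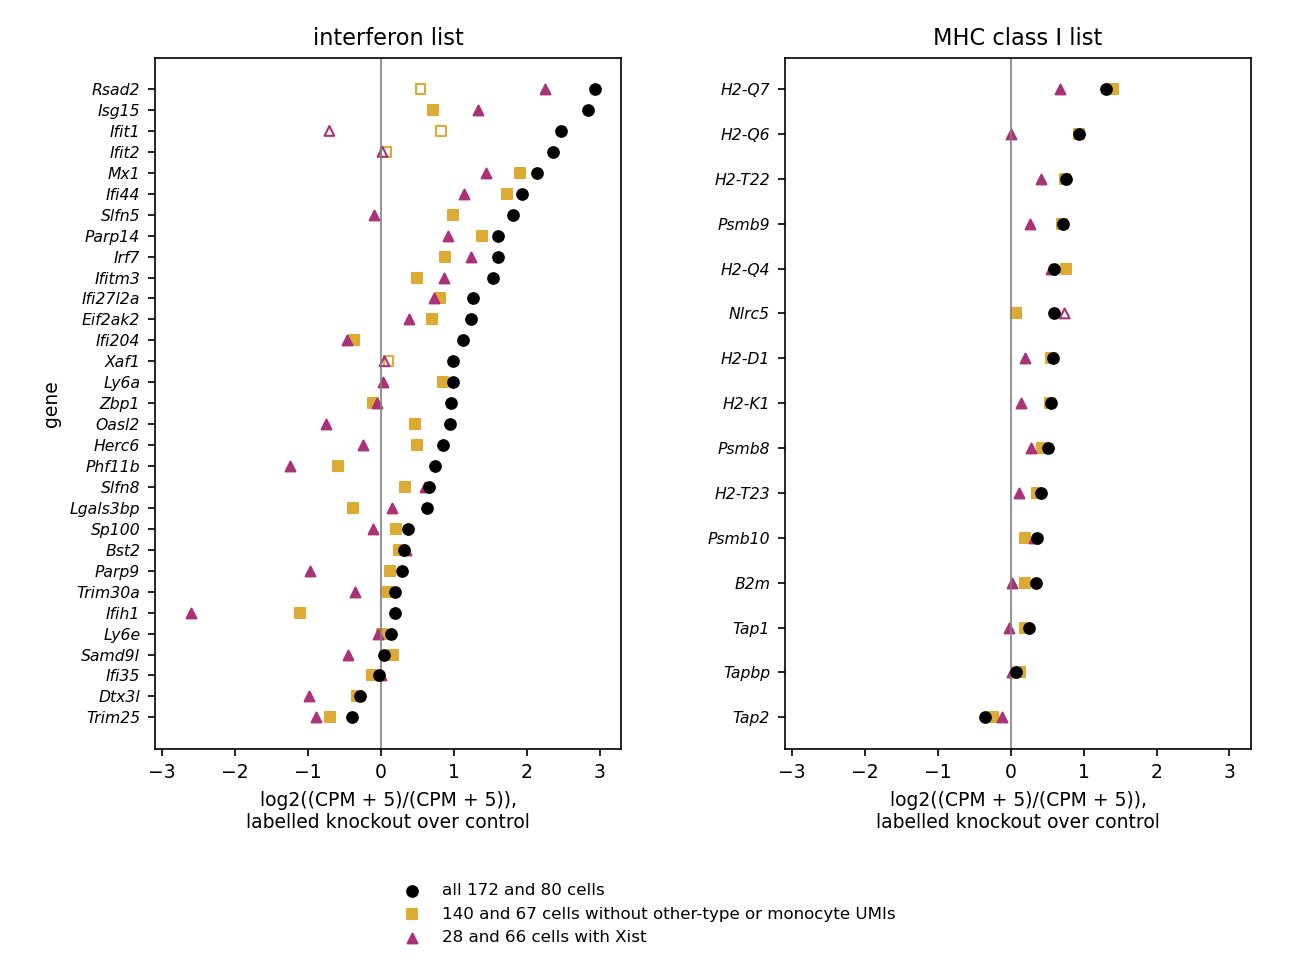
Log2 ratio of knockout-labelled over control pDC (horizontal) for each measured gene of the interferon list (left) and the MHC class I list (right), over all pDC (circles), over 140 and 67 pDC without other-type or monocyte UMIs (squares) and over 28 and 66 pDC with Xist (triangles); open symbols have under 20 UMIs. Medians go from 0.96 to 0.25 and -0.02 for the interferon list, and from 0.56 to 0.44 and 0.16 for MHC class I. Each median is over the genes with at least 20 UMIs in that set of cells, so the genes can differ between sets.

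Counted per cell after thinning to 1000 UMIs, the median pDC held 7 interferon-list UMIs in the control library (1 to 44, n = 170 cells) and 10 in the library labelled knockout (0 to 40, n = 79 cells), and the ranges overlapped. The medians were 9 and 10 in cells with Xist, 7 and 12.5 in 102 and 6 cells with Y-linked UMIs, and 8 and 14 in 40 and 8 cells with neither or both. The interferon receptor subunits Ifnar1 and Ifnar2 were at 246 and 306 CPM (ratio 1.24, 0.993 to 1.55) and at 220 and 236 CPM (1.08, 0.838 to 1.38). Bst2, the pDC antigen tetherin, was at 2966 and 3701 CPM (1.25, 1.17 to 1.33), with a ratio of 1.27 (1.13 to 1.41) in cells with Xist. Over the genes measured in pDC, of which 30 or 31 were measured in each class, the list's medians were 0.80 in cDC1, 0.85 in cDC2, 1.55 in migratory dendritic cells, 1.34 in monocytes and 0.59 in B cells, and their differences from pDC were not tested.

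MHC class I genes were also higher in knockout-labelled pDC, and their median moved less than that of the interferon list when mixed cells were left out. All 15 genes of the list were measured, 14 were above 0 and 1 was at least 2-fold higher, with a median of 0.56. Among all measured genes 46.7% were above 0 and 1.54% at least 2-fold higher. H2-K1 and H2-D1, the classical class I chains, were at 1744 and 2565 CPM and at 1600.2 and 2387 CPM. H2-Q7, a nonclassical chain with close copies, was at 390 and 973 CPM (ratio 2.50, 2.16 to 2.89). The immunoproteasome subunits Psmb8 and Psmb9 were at 564 and 804 CPM and at 240 and 399 CPM, and B2m, the light chain, at 2343 and 2973 CPM. For the peptide transporter genes Tap1 (159 and 190 CPM) and Tap2 (81.6 and 62.6 CPM) and for Tapbp, which encodes tapasin (443 and 463 CPM), the interval of the ratio included 1. Without pDC carrying other-type or monocyte UMIs the median was 0.44.

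Within cells with Xist the MHC class I median was 0.16. H2-K1 was then at 2187 and 2407 CPM (1.10, 0.965 to 1.26), and H2-Q7 at 595 and 957 CPM (1.61, 1.26 to 2.07), a ratio that was 1.62 (1.24 to 2.13) in the 24 and 54 cells that were also free of other-type or monocyte UMIs. Inside the control library the list summed to 10576 CPM in 28 cells with Xist and 8268 CPM in 103 cells with Y-linked UMIs, and it was 11920 CPM in the 66 knockout-labelled cells with Xist and 16123 CPM in the 6 with Y-linked UMIs. The order of the kinds of cell was thus opposite in the libraries. The number of hosts behind each kind of cell is not given, so sex and host cannot be told apart.

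MHC class II genes showed no common shift, with a median of 0.02 over 10 measured genes. Cd74, the invariant chain, was at 4290.1 and 3891 CPM and H2-Aa at 1578 and 1460 CPM. In cDC1 and cDC2, Cd74 was at 13056 to 16472 CPM. H2-DMb2, part of the peptide editor H2-DM, had 25 and 3 UMIs, and Ciita, the class II transactivator, 25 and 17.

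**Figure D5:**
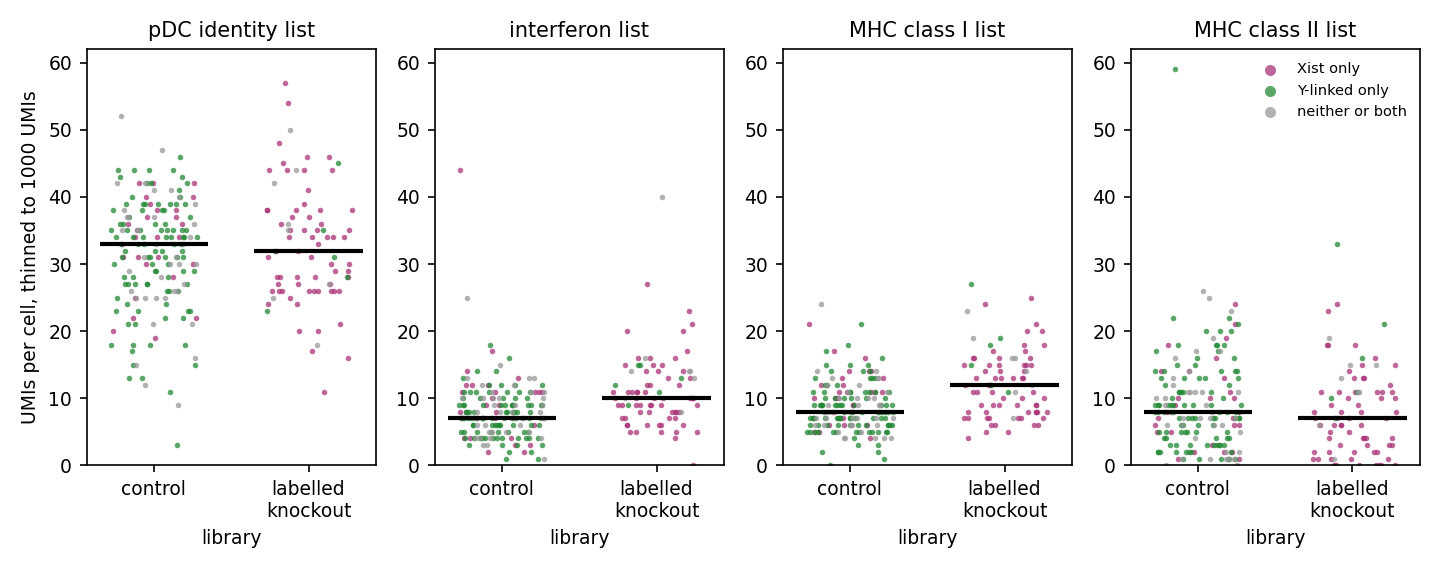
UMIs of 4 gene lists in each pDC thinned to 1000 UMIs (vertical axis) in the control library (170 cells) and the library labelled knockout (79 cells); points are cells, colored by Xist or Y-linked UMIs, and bars are medians. Medians are 33 and 32 for the identity list, 7 and 10 for the interferon list, 8 and 12 for MHC class I and 8 and 7 for MHC class II, with overlapping ranges.

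Transcripts of some other cell types differed between the libraries. S100a8 and S100a9, the calprotectin subunits of neutrophils, had 518 and 646 UMIs in control pDC and 0 in knockout-labelled pDC. The neutrophil list summed to 1449.6 and 13.9 CPM in pDC, with 1 control cell holding 37.3% of its UMIs and 135 of 172 control pDC holding none, and to 1239 and 164 CPM in all other barcodes. The monocyte list was at 685 and 1052 CPM, with 50 and 21 pDC at 3 or more UMIs. The macrophage list was at 266 and 287 CPM (ratio 1.08, 0.863 to 1.35). The list of B cells was at 95.4 and 48.7 CPM (ratio 0.510, 0.300 to 0.831), with 25.3% of its control UMIs in 1 cell. That of NK cells was at 27.6 and 6.95 CPM (0.252, 0.0486 to 0.830). It rested on 24 and 3 UMIs, and 1 control cell held 66.7% of the 24. In all other barcodes the lists were at 534 and 177 CPM for B cells and 291 and 312 CPM for NK cells. For T cells (32.2 and 27.8 CPM) and melanoma cells (52.9 and 30.1 CPM) the interval of the ratio included 1. The B-cell, T-cell and macrophage lists include genes that the rule limited, namely Ms4a1, the Cd3 genes and the C1q genes. Their levels in pDC were thus partly set by the rule. Beyond the reduced set above, the part of transcripts of other cell types in the differences was not tested.

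Of 21 cytokine and death ligand genes 10 were measured, with a median of -0.81, 2 at least 2-fold higher and 4 lower. Among all measured genes 1.54% were at least 2-fold higher and 2.41% lower. Cxcl2, a chemokine that attracts neutrophils and is also made by them, had 391 and 12 UMIs, and 116 and 2 in the reduced set. Without the barcodes with the highest doublet scores, Cxcl2 had 26 and 3 UMIs, so most of its control UMIs lay in such barcodes. Il1b, the gene of interleukin 1 beta, had 74 and 4 UMIs, and 3 and 1 in the reduced set. Ccl2 had 116 and 268 UMIs, of which 1 cell held 47.4% and 37.7%, and in the reduced set 4 and 10. Cxcl10, an interferon-induced chemokine, had 2 and 28 UMIs, of which 1 cell held 64.3% in the library labelled knockout, and in the reduced set 2 and 7. The heat-shock genes Hspa1a and Hspa1b, which respond to tissue dissociation, had 63 and 59 UMIs in control pDC and 0 and 1 in knockout-labelled pDC. One control cell held 30.2% and 40.7% of them, and the stress list as a whole had a median of -0.19 over 22 genes. Cxcr4, a chemokine receptor, had 29 and 4 UMIs.

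Outside the lists, the 12 highest and 12 lowest ratios were named among genes with at least 50 UMIs, an interval excluding 1 and no cell above 20% of the UMIs. Higher in knockout-labelled pDC were Slfn2, a schlafen protein (59.8 and 141 CPM), AI607873 of the interferon-inducible Ifi200 family (64.4 and 151 CPM), Pigk, Sdhaf1, Sav1, Psmc4, Immp1l, Vps26a, Gcc2, Mpg, Irf2 and Kxd1, with log2 ratios of 0.93 to 1.18. Lower were Gdap10, Fbxl20, Slc2a3, a glucose transporter (105 and 37.1 CPM), Ddx21, Mta3, Tob2, Vgll4, Chp1, Narf, Cbx5, Gorasp2 and Ccar1, with log2 ratios of -1.42 to -1.14. These genes were picked for their ratios, which describe that choice.

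Variation among the chosen cells, mixed ones included, was read from thinned counts. Of 1400 genes with a mean of at least 0.1 UMIs per thinned cell in both libraries, the median variance over mean was 1.04 and 1.03. The 15 highest by the smaller of the libraries' values were Malat1, Cd74, Lgals3, Ifitm3, Ly6d, Tmsb4x, H2-Aa, Cebpb, Srgn, Slpi, Actb, Ifi27l2a, H2-Ab1, Klk1 and Tcf4. Cd74 had a variance over mean of 2.87 and 3.34, and 11.8% and 22.8% of thinned cells had 0 UMIs of it. For Ly6d it was 2.42 and 3.05, with 32.4% and 34.2% of thinned cells at 0. Klk1 had 1.93 and 1.74, with 72.9% and 63.3% at 0, so most thinned pDC lacked a UMI of this marker. Lgals3, the galectin 3 gene of myeloid cells, was at 0 in 87.6% and 83.5% of thinned pDC. Of the 198 and 290 unthinned UMIs of Ifitm3, 170 and 269 lay in the 32 and 13 pDC with other-type or monocyte UMIs, so its spread was mostly between those cells and the rest.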

How the data were processed

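Single-cell 3' RNA libraries of sorted live CD45+ tumor cells, 1 for each of the 2 groups, were made with 10x Chromium v3 chemistry, per the labels' protocols. The authors deposited UMI counts per gene and barcode made with Cell Ranger 3.0.1, per the file headers and the submitters' processing notes, on the mm10 build. The gene annotation is not given in the sources used here.

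From the counts, UMIs were summed over pDC of each library and scaled to CPM with exact Poisson intervals. Shares have exact Clopper-Pearson intervals, ratios of CPM exact conditional binomial ones and ratios of shares log-normal ones. Genes with at least 20 UMIs over both libraries were called measured, and ratios used a pseudocount of 5 CPM. With 1 library a group there was no test; cells are not replicates. A count of 0 was read against a floor of 3 UMIs. Cells were thinned to 1000 UMIs where stated, leaving out 2 control pDC and 1 knockout-labelled pDC with fewer. Doublets stayed in the main values. An alternative left out the barcodes with the highest Scrublet scores (scanpy 1.11.5), 22 and 4 of them pDC. The code for gene ratios with their intervals and for thinning was tested on simulated counts, and the other steps were not. Python 3.11.15, numpy 2.4.6, scipy 1.17.1 and pandas 2.3.3 were used.

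The members and gene lists were chosen with earlier results of these data known. Named genes were list genes, the 12 highest and 12 lowest ratios, the 25 genes highest over other cells and the 15 most variable. Promoter windows came from RefSeq (GRCm38.p6). Alternatives changed the mitochondrial limit, the Siglech minimum, doublets, other-type UMIs, sex, depth, the pseudocount, the UMI minimum, cell weights, free RNA and scaling.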

Additional observations from a re-analysis of the deposited data

Results flagged for a closer look

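The mitochondrial limit left out 19 barcodes that met every UMI condition for pDC. The control library held 13 of them, with Siglech at 4804 CPM and mitochondrial shares of 10.2% to 49.9%. The remaining 6 had Siglech at 5302 CPM and shares of 10.6% to 34.8%. They enter no comparison.

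For 3 genes the library ratio differed in sign between pDC with Xist and pDC with Y-linked UMIs with at least 20 UMIs and a counting interval excluding 1 on both sides. Other genes differed in sign without meeting that. In that order the log2 ratios were -2.74 and 2.63 for Ccl4, -0.36 and 0.57 for Cd74, and -0.34 and 0.90 for H2-Aa. The second value of each pair rests on 6 knockout-labelled cells, and the differences were not tested.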

How the results depend on the processing

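No paired analysis was possible because each group has 1 library. Of 1943 values of named genes under alternatives, 1642 stayed within the main value's counting interval, 270 left it and 31 were counted as turned in direction. A turn was counted only where the main interval excluded 1, so changes of sign in other genes are among the 1642 and 270. The share's log2 ratio of -0.80 was 0.0038 in cells with Xist and -1.83 in those with Y-linked UMIs, and -1.46 in those with neither or both.

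The interferon-list median of 0.96 was 2.31 under the 5% mitochondrial limit, 0.56 with at least 5 Siglech UMIs, 0.26 without pDC with 3 UMIs of another type, 0.25 without those or monocyte UMIs, -0.017 in cells with Xist, -0.080 in these without mixed cells, 0.20 in these without the richest cell, 0.22 in cells with Y-linked UMIs, 0.35 thinned, 0.69 with a pseudocount of 20 CPM, 0.68 with at least 100 UMIs, 0.69 with cells weighed alike, 0.29 without the deepest 5%, 0.73 without each gene's top cell and 0.28 without the 2 cells rich in Isg15. The MHC class I median of 0.56 was 0.91 under the 5% limit, 0.42 without other-type cells, 0.16, 0.15 and 0.27 in the 3 sets with Xist (all, without mixed cells, without the richest) and 0.27 thinned. MHC class II (0.02) was 0.74 among Y-linked cells and -0.30 among Xist cells that were not mixed. The identity list (0.03) was 0.24 under the 5% limit, -0.065 without doublet scores, -0.076 thinned, and 0.11, 0.14 and 0.12 in the 3 Xist sets. The sensing list (0.17) was -0.079, -0.072 and -0.13 in these and -0.090 thinned. Each list median is over the genes measured under that alternative, so the genes can differ between medians.

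Usp18 was 2.67 under the 5% limit, 0.85 without other-type cells, 0.87 without these or monocyte UMIs, and -0.21 and -0.41 in cells with Xist, all and without mixed cells. The 105 genes at least 2-fold higher were 64 without other-type cells, 52 without these or monocyte UMIs, 68 without the 2 cells, 67 without top cells, 196 in cells with Xist, 186 without the richest of them, 347 with Y-linked UMIs, 56 thinned, 45 with a pseudocount of 20 CPM, and 19 and 261 with at least 100 UMIs and 1 UMI. The 164 lower ones were 100 under the 5% limit (17 and 12 cells), 901 with Y-linked UMIs, 262 and 36 with pseudocounts of 1 and 20 CPM, 16 and 413 with at least 100 UMIs and 1 UMI, and 106 in cells with Xist without mixed cells.

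Single genes whose main interval excluded 1 turned in direction as follows, as log2 ratios. Under the 5% limit these were Klk1 -0.30, Atp1b1 0.20 and Lag3 -0.086. Thinned, they were Ly6e -0.090 and Psmb9 -0.11. In cells with Xist they were Slfn5 -0.093, Ly6e -0.043, Fcer1g -0.056 and Gorasp2 0.65, and without the richest cell Slfn5 was -0.040. In cells with Xist without mixed cells they were Isg15 -0.48, Slfn5 -0.19, Ly6a -0.060, Ly6e -0.12, B2m -0.10, Cd209d 0.20, Fcer1g -0.26, AI607873 -0.32 and Vps26a -0.016, and the ISG15 system list's median was -0.24. In cells with Y-linked UMIs they were Bst2 -0.024, Cd74 0.57, Plac8 -0.014, Ccl2 -1.59, Ccl4 2.63, Slfn2 -0.28, Pigk -0.40, Slc2a3 1.10, Fcgr2b -0.50 and Chp1 0.80. The cytokine list's median was 0.0054 with at least 1 UMI. The cause was not tested. The sets that leave out mixed, top or richest cells, and that with neither or both kinds of UMI, were chosen after seeing the data, and 6 knockout-labelled cells limit every value with Y-linked UMIs.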
